A study of Mus musculus with 19 samples.

Results

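The chromatin around 7 mouse genes of Toll-like receptor signalling was examined by ATAC-seq, which maps open chromatin by where a transposase can cut DNA. The genes were 5 receptors, Tlr1, Tlr2, Tlr3, Tlr4 and Tlr6, and 2 adaptors, Myd88 and Ticam1. A peak was counted for a gene when its centre lay in the gene body or within 50 kb of either end, on GRCm38 RefSeq coordinates. This gave 47 of the 90154 peaks in the table, 2 of which fell in the windows of both Tlr1 and Tlr6. The genes were chosen by TNF gains, since a distal peak near Tlr2 was known to be among the strongest, with no time named. The TNF changes of that peak are therefore given as a description, with no test, and so is every TNF change at 24 h. Counts of calls at 24 h are printed beside the share of all peaks, and nothing is read from them.

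Some libraries came from neurospheres (NSPs), floating cultures of neural stem cells. The cells were taken at embryonic day 14 from the ventricular zone of the C57BL/6J brain. NSPs were kept in medium with EGF and 0% FBS. The other libraries came from cells differentiating from NSPs towards astrocytes on coated plates, in medium with 10% FBS. Medium, attachment and time therefore cannot be told apart in any change from NSPs. There were 6 groups. These were undifferentiated NSPs (3 libraries), cells after 24 h without TNF (3) and with TNF at 50 ng/ml (3), cells after 72 h without TNF (3) and with TNF at 50 ng/ml (3), and cells after 1 week without TNF (4). No transgene or deletion is named for any group, and each library is a bulk culture, so more cells with an open site and more opening per cell cannot be told apart. The reads in peaks recovered from the table numbered 28636739 to 39349111 per library in NSPs and 9640256 to 25165008 in the other groups. NSP replicate 1 stood apart from the others of its group, with Spearman correlations over peaks of 0.923 and 0.913 against 0.982 between NSP replicates 2 and 3. The 72 h and 1 week libraries carry a name tag that the NSP and 24 h libraries lack, so time and tag cannot be told apart in 72 h against 24 h or in 1 week against NSPs.

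Toll-like receptors recognise conserved molecules of microbes and of damaged cells. TLR2 pairs with TLR1 or TLR6 at the cell surface to recognise lipopeptides, TLR4 recognises lipopolysaccharide, and TLR3 recognises double-stranded RNA in endosomes. MYD88 is the adaptor of most of these receptors and leads to NF-κB, whereas TICAM1, also called TRIF, serves TLR3 and TLR4 and leads to interferon regulatory factors as well as NF-κB. Microglia are the best known brain cells with these receptors, and astrocytes also respond through several of them. TNF acts through its own receptors and activates NF-κB, a factor that binds κB sites.

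The promoters of Tlr2, Tlr3 and Ticam1 are shown because their start peaks behaved differently, the first opening with TNF, the second staying level and the third falling as differentiation began. Each line gives the 250 bases before the start listed by RefSeq (GRCm38.p6), on the minus strand, with matches to the κB consensus in capitals.
Tlr2, chr3:83841609-83841858: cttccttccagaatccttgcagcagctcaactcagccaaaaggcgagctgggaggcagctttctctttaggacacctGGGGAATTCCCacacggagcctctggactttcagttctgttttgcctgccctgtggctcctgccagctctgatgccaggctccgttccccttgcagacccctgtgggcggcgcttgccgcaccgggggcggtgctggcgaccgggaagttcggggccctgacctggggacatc
Tlr3, chr8:45410381-45410630: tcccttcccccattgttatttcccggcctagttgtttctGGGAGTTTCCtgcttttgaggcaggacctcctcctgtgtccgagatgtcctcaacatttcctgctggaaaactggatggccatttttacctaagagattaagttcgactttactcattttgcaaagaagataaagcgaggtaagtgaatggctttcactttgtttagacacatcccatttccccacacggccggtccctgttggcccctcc
Ticam1, chr17:56276768-56277017: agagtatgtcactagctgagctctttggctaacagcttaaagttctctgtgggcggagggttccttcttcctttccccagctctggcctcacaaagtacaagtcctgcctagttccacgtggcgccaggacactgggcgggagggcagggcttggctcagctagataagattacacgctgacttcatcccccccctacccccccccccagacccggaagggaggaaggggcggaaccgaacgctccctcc
The capitals in the Tlr2 promoter cover 2 overlapping matches, GGGGAATTCC and GGGAATTCCC, the latter a palindrome, with their first bases 173 and 172 bases before the start. The Tlr3 promoter holds 1 match, GGGAGTTTCC, 211 bases before the start, and the Ticam1 promoter holds none. Searched on both strands, the κB consensus matched 7.25% of 32851 promoters of this length. The AP-1 heptamer TGANTCA, found in 6.75% of promoters, matched none of the promoters listed for the members. No promoter is listed for Tlr4, which was therefore not searched for any of these motifs. The core of the interferon-stimulated response element, GAAANNGAAA, found in 2.98% of promoters, matched once in Myd88, as GAAAGCGAAA, and in 2 overlapping places in 1 of the 2 promoters listed for Tlr6. A match is a string of letters and not a bound site.

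With TNF at 72 h most peaks around Tlr2 and Tlr4 had higher values. The genes were chosen from a TNF gain near Tlr2, so the Tlr2 values partly restate that choice. The median log2 change was 1.06 over the 7 peaks of Tlr2 and 0.92 over the 4 of Tlr4, and between -0.09 and 0.17 for the other 5 genes. Of the 47 peaks, 9 were higher and 1 was lower with TNF at 72 h (limma, adjusted p under 0.05), against 6.24% higher and 5.55% lower of the 88919 peaks tested. The higher ones were 5 of 7 peaks around Tlr2, 3 of 4 around Tlr4 and 1 of 6 around Myd88. The 5 include the distal peak of the choice. Its call is no test, and nothing is read from its part in the count or in the Tlr2 median. The Tlr2 peaks 23.6 kb and 3.2 kb upstream followed its profile (Pearson r = 0.925 and 0.892). Their calls are therefore not taken as independent of it. Several of the other calls, around Tlr2, Tlr4 and Myd88, were lost under some alternatives, as given below. The lower one was 1 of 6 around Tlr3. None of the peaks around Tlr1, Tlr6 or Ticam1 passed the threshold at 72 h. The median log2 change was 0.15 over the members and 0.03 over all peaks. With libraries scaled by total reads, 7 member peaks were higher and 2 lower. At 24 h 8 of the 47 were higher and 3 lower, where 7.06% and 3.53% of all peaks were. All 47 peaks passed the filter on low values.

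**Figure D1:**
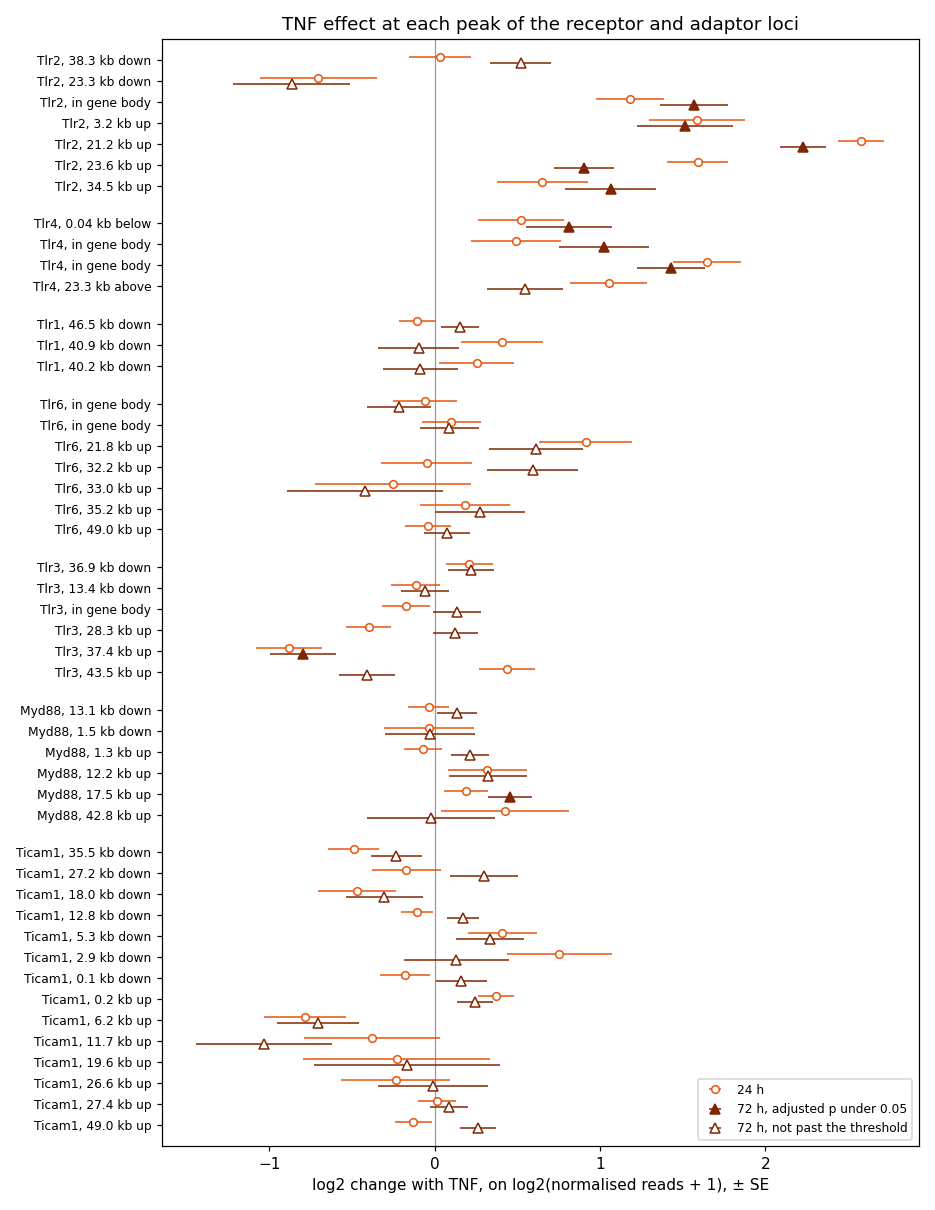
Each row is 1 of the 47 peaks, named by gene and by its distance from the gene in kb (up, upstream; down, downstream; for Tlr4, below or above the gene on the chromosome). The horizontal axis is the log2 change with TNF ± SE at 24 h (circles) and 72 h (triangles, filled where the adjusted p was under 0.05). The filled triangles on the right belong to Tlr2, Tlr4 and 1 peak near Myd88, and the only one on the left lies 37.4 kb upstream of Tlr3. The filled triangle of the peak 21.2 kb upstream of Tlr2, by which the genes were chosen, is no test.

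Tlr2 lies at chr3:83836272-83841824. Its strongest peak was intergenic, at chr3:83862823-83863323, 21.2 kb upstream of the gene. The NSP libraries held 27.5, 24.5 and 19.9 normalised reads there. After 24 h the values were 134, 127 and 124.4 without TNF and 822, 748 and 751 with TNF. After 72 h they were 147, 151 and 161 without TNF and 693, 707 and 759 with TNF. The 1 week libraries held 164, 192, 176 and 176. The site was thus nearly closed in NSPs, partly open in every differentiating library, and several times higher in every TNF library, with no overlap between those 3 levels. The log2 change with TNF was 2.58 at 24 h and 2.23 at 72 h, the values for which the peak was chosen. Opening from NSPs to 24 h without TNF came to 2.39 ± 0.14 on the log2 scale (SE; limma, adjusted p = 2.5e-14). From 24 h to 72 h and from 72 h to 1 week, the changes were 0.25 (adjusted p = 0.19) and 0.21 (adjusted p = 0.20).

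The start peak of Tlr2, at chr3:83841288-83841788, in the gene body and 0.07 kb from the start listed above, followed another course. It was already open in NSPs, at 145, 122 and 121 normalised reads. Without TNF the 24 h libraries held 153, 103 and 129, and with TNF 271, 253 and 350. Without TNF the 72 h libraries held 144, 84.9 and 120, and with TNF 397, 293 and 335. The 6 TNF libraries lay above every other library at this peak. The log2 change with TNF was 1.18 at 24 h and 1.57 ± 0.21 at 72 h (limma, adjusted p = 6.2e-06). The 1 week libraries held 88.2, 80.3, 110 and 60, a log2 change of -0.63 ± 0.19 from NSPs (adjusted p = 0.0055). From NSPs to 24 h the start peak changed by -0.02 ± 0.21 (adjusted p = 0.94), beside the 2.39 ± 0.14 of the distal peak.

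A weaker peak 3.2 kb upstream of Tlr2, at chr3:83844783-83845283, held 19.3, 30.1 and 19.3 normalised reads in NSPs. At 72 h it held 39.9, 37.1 and 42.1 without TNF and 127, 105 and 114 with TNF, a log2 change of 1.51 ± 0.29 (limma, adjusted p = 0.00066), against 1.59 at 24 h. Its rise from NSPs to 24 h, 0.71 (adjusted p = 0.044), was lost without NSP replicate 1 or 3 or any of the 24 h libraries, with loess and with only the compared groups, with adjusted p up to 0.13. Values were higher with TNF at both times.

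The peak 23.6 kb upstream, at chr3:83865180-83865680, next to the strongest one, held 80.8, 87 and 72.7 normalised reads at 24 h without TNF and 231, 265 and 234 with TNF. At 72 h it held 122, 114 and 110 without TNF and 272, 174 and 214 with TNF. The log2 change was 1.59 at 24 h and 0.91 ± 0.18 at 72 h (limma, adjusted p = 0.0011). The change of the TNF effect between the times, -0.68, was not past the threshold (adjusted p = 0.56). The peak 34.5 kb upstream, nearer to Tmem131l, rose by 1.06 ± 0.28 with TNF at 72 h (adjusted p = 0.01), which was lost without 72 h replicate 3 (adjusted p = 0.081) or without 72 h TNF replicate 1 (adjusted p = 0.070). It also rose by 1.49 from NSPs to 24 h (adjusted p = 5.7e-05).

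The remaining peaks of the Tlr2 window lie downstream of the gene. The one 23.3 kb away, at chr3:83812770-83813270, had lower values with TNF at both times. It held 164, 168 and 156 normalised reads at 24 h without TNF and 81.4, 123 and 98.7 with TNF, then 247, 203 and 237 at 72 h without TNF and 114, 132 and 131 with TNF. The log2 change of -0.86 at 72 h was not past the threshold (limma, adjusted p = 0.12). The NSP libraries were far apart here, at 136, 23.1 and 21.9, and with the spread taken from the 72 h groups alone the same change passed (adjusted p = 2.7e-05). The peak's TNF change at 72 h passed in only this 1 of 17 alternatives. Its rise from NSPs to 24 h was 1.95 (adjusted p = 4.1e-05) and 2.80 without NSP replicate 1 (adjusted p = 1.1e-17). The peak 38.3 kb downstream, nearer to Sfrp2, changed by 0.52 with TNF at 72 h (adjusted p = 0.068).

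**Figure D2:**
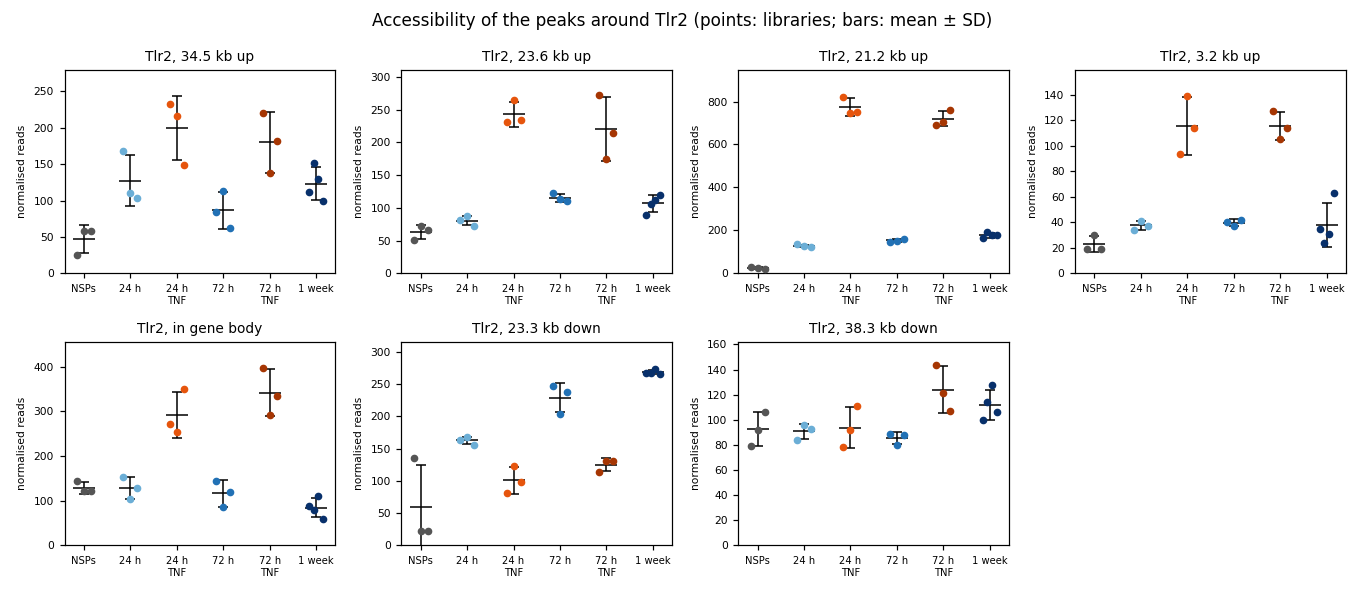
Each panel is 1 of the 7 peaks around Tlr2, from the far upstream to the far downstream side, with normalised reads on the vertical axis and the 6 groups on the horizontal axis. Points are libraries and bars are the mean ± SD, cut off at 0 where the SD is larger than the mean. The TNF groups stand above their controls in the first 5 panels and below them in the panel 23.3 kb downstream.

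Tlr1 and Tlr6, the partners of TLR2, lie side by side on chromosome 5 (chr5:64924680-64933600 and chr5:64953092-64970942). No peak lay within 25 kb of Tlr1. Its 5 peaks and the 7 of Tlr6, 10 distinct peaks in all, included none past the threshold for TNF at 72 h. The peak with the smallest p for TNF around Tlr6, 21.8 kb upstream of Tlr6 and inside Fam114a1, held 91.4, 74.2 and 76.5 normalised reads at 72 h without TNF and 123, 111 and 137 with TNF, a log2 change of 0.61 ± 0.28 (limma, adjusted p = 0.17). At 24 h the change there was 0.91. With the 72 h groups alone in the fit the 72 h change passed (adjusted p = 0.019), the only 1 of 17 alternatives in which it did.

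Around these partner genes the larger changes came with time. A peak 46.5 kb downstream of Tlr1, nearer to Klf3, a zinc-finger factor, held 912, 930 and 1112 normalised reads in NSPs and 2843, 2526, 3563 and 2799 at 1 week. It rose by 0.61 ± 0.11 from NSPs to 24 h (limma, adjusted p = 6.9e-05) and by 0.98 ± 0.11 from 72 h to 1 week (adjusted p = 1.3e-07). The later rise was 0.64 with total-read scaling and 0.30 with loess (adjusted p = 0.018). A peak 40.9 kb downstream of Tlr1 rose by 1.30 from 24 h to 72 h (limma, adjusted p = 0.00029), in every alternative. With TNF at 24 h it changed by 0.41. The peak 32.2 kb upstream of Tlr6 rose by 0.75 from 72 h to 1 week (adjusted p = 0.022). That rise was lost with total-read scaling, with edgeR, without 72 h replicate 1 or without 1 week replicate 2 (adjusted p up to 0.22). A peak 33.0 kb upstream of Tlr6, also in Fam114a1, was almost without reads in NSPs, at 1.17, 0.471 and 3.32. It held 58.2, 62.3, 39.6 and 54.7 at 1 week. The peak at the outer edge, 49.0 kb upstream of Tlr6, went the other way, from 599, 717 and 684 in NSPs to 286, 339 and 307 at 24 h, a log2 change of -1.10 ± 0.14 (adjusted p = 2.1e-07).

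Inside Tlr6 there were 2 peaks. One, at chr5:64969819-64970319, lies at the start of Fam114a1 and passed the threshold in no comparison of the main fit. Its change from NSPs to 1 week, -0.36 (limma, adjusted p = 0.058), passed in 8 of 19 alternatives. The change from 24 h to 72 h, -0.45 (adjusted p = 0.060), passed in 3 of 18. The other peak inside Tlr6, at chr5:64966298-64966798, held 49.1, 60.8 and 61.1 normalised reads in NSPs and 128, 113, 114 and 122 at 1 week, a log2 change of 1.06 (limma, adjusted p = 7.8e-06). Its step from 24 h to 72 h, 0.53 (adjusted p = 0.043), was lost when any of 24 h replicates 1 and 3 and 72 h replicates 1, 2 and 3 was left out, with adjusted p up to 0.16.

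Tlr4 lies at chr4:66827551-66846581, and 3 of its 4 peaks cluster at the end of the gene with the lower coordinate. The strongest of them, at chr4:66828607-66829107 in the gene body, held 54.3, 68.3 and 61.8 normalised reads in NSPs. After 24 h it held 55.8, 84.1 and 55.4 without TNF and 176, 215 and 218 with TNF. After 72 h it held 92.6, 94.5 and 81.6 without TNF and 273, 229 and 228 with TNF. All TNF libraries lay above all others, the 1 week libraries, at 124.3, 85.7, 152 and 151, included. The log2 change with TNF was 1.65 at 24 h and 1.43 ± 0.21 at 72 h (limma, adjusted p = 2.0e-05). The step from 72 h to 1 week, 0.48, was at the threshold (adjusted p = 0.048) and was lost under most alternatives, with adjusted p up to 0.58.

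The neighbouring peaks of Tlr4 were weaker. At chr4:66827772-66828272 the values at 72 h were 42.5, 39.5 and 54.8 without TNF and 88.5, 93.1 and 97.2 with TNF, a log2 change of 1.03 ± 0.27 (limma, adjusted p = 0.012) that was lost without 72 h replicate 2 (adjusted p = 0.056). That peak also rose by 0.89 from NSPs to 24 h (adjusted p = 0.0083), which did not pass without 24 h replicate 1 (adjusted p = 0.071) or with only the compared groups. At the gene's lower end, chr4:66827256-66827756, the change at 72 h was 0.81 ± 0.26 (adjusted p = 0.037) and was lost when any of 5 of the 6 libraries was left out, 72 h replicate 2 being the exception, with adjusted p up to 0.24, and also with total-read scaling and with edgeR. The peak 23.3 kb beyond the other end held 112, 92.7 and 161 at 24 h with TNF and 58.1, 50.2 and 62.8 without, and its change at 72 h was 0.55 (adjusted p = 0.13).

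Tlr3, at chr8:45395665-45411075, encodes the receptor for double-stranded RNA in endosomes. Its start peak, at chr8:45410056-45410556, was as open in NSPs, at 244, 233 and 287 normalised reads, as at 1 week, at 335, 302, 229 and 300. With TNF it held 295, 302 and 268 at 72 h, against 274, 285 and 231 without, a log2 change of 0.13 ± 0.15 (limma, adjusted p = 0.62). It passed the threshold in none of the 7 comparisons.

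The distal peaks upstream of Tlr3 changed far more. The one 37.4 kb upstream, at chr8:45448207-45448707, held 82.9, 31.1 and 33.2 normalised reads in NSPs and 527, 507 and 523 at 24 h without TNF. It held 288, 288 and 270 at 24 h with TNF. At 72 h it held 629, 599 and 718 without TNF and 373, 359 and 384 with TNF, and at 1 week 880, 827, 874 and 911. It opened in every differentiating library and stood lower in every TNF library than in any untreated library of the same time. The rise from NSPs to 24 h was 3.53 ± 0.20 on the log2 scale (limma, adjusted p = 1.4e-14), or 3.97 without NSP replicate 1. With TNF the log2 change was -0.88 at 24 h and -0.80 ± 0.20 at 72 h (adjusted p = 0.0078).

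A second site, 28.3 kb upstream of Tlr3, rose at each step, with 60.2, 67.8 and 71.8 normalised reads in NSPs, 235, 242 and 218 at 24 h, 390, 432 and 316 at 72 h, and 607, 678, 693 and 721 at 1 week. The log2 changes were 1.78 (limma, adjusted p = 8.7e-12), 0.70 (adjusted p = 0.00037) and 0.84 (adjusted p = 1.1e-05), the last of them 0.50 with total-read scaling. With TNF at 72 h it changed by 0.12 (adjusted p = 0.63). The site 43.5 kb upstream rose between 24 h and 72 h, by 0.84 (adjusted p = 0.00054). A peak in Fam149a, 36.9 kb downstream, changed by -0.50 over the same step (adjusted p = 0.0091), which was lost without 24 h replicate 3 or without 72 h replicate 1 (adjusted p up to 0.074).

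MYD88 is encoded at chr9:119335934-119340018. No peak was centred within 1 kb of its start, and the nearest upstream peak, at chr9:119341019-119341519, lies 1.25 kb away at the start of Acaa1a, an enzyme of peroxisomal fatty acid oxidation. This peak held 2113, 1537 and 1656 normalised reads in NSPs, 1830, 1806 and 1578 at 24 h, and 2865, 2717, 3380 and 2690 at 1 week. It was among the most open of the 47 peaks. The rise from 72 h to 1 week, 0.74 ± 0.11 (limma, adjusted p = 5.6e-06), shrank to 0.02 (adjusted p = 0.87) when libraries were aligned by loess against peak height. With loess the earlier steps were called instead, by 0.31 from NSPs to 24 h (adjusted p = 0.00018) and 0.19 from 24 h to 72 h (adjusted p = 0.021), where the changes were -0.02 and -0.00031 without it. With TNF at 72 h it changed by 0.21 (adjusted p = 0.26). The peak 13.1 kb downstream of Myd88 changed by 0.21 from 24 h to 72 h (limma, adjusted p = 0.21), which passed only with total-read scaling and with loess.

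The TNF gain near Myd88 was at a peak 17.5 kb upstream, in Xylb, which encodes xylulokinase. It held 250, 207 and 245 normalised reads at 72 h without TNF and 323, 322 and 316 with TNF, a log2 change of 0.46 ± 0.13 (limma, adjusted p = 0.022). This was lost without 72 h replicate 2 or without any of the 3 TNF libraries, with adjusted p from 0.057 to 0.12, and with total-read scaling (adjusted p = 0.061). The same peak was lower at 24 h than in NSPs, by -0.48 (adjusted p = 0.0038; 0.081 with total-read scaling).

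Ticam1, at chr17:56269462-56276767, had the most peaks, 14, of which 2 had Ticam1 as the nearest gene. Its start peak, at chr17:56276700-56277200, covers the printed promoter. It held 615, 710 and 768 normalised reads in NSPs. At 24 h it held 457, 487 and 447 without TNF and 595, 610 and 591 with TNF. At 72 h it held 483, 535 and 560 without TNF and 611, 658 and 600 with TNF, and at 1 week 773, 728, 869 and 740. Values at the promoter were lower after 24 h than in NSPs, and 2 of the 1 week libraries lay within the NSP range and 2 above it, with TNF libraries above their controls at both times. The fall at 24 h was -0.58 ± 0.11 (limma, adjusted p = 6.0e-05), or -0.39 with loess. The TNF change was 0.37 at 24 h, and 0.25 ± 0.11 at 72 h did not pass (adjusted p = 0.15). The rise from 72 h to 1 week was 0.56 (adjusted p = 8.6e-05), and did not pass with total-read scaling or loess, with adjusted p up to 0.33.

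Other peaks of the Ticam1 window fell during differentiation. From NSPs to 1 week 4 of its 14 peaks fell and 2 rose, where 33.6% and 33.7% of all peaks did. The largest falls were -2.84, -2.69 and -2.19, at 11.7, 19.6 and 26.6 kb upstream (limma, adjusted p = 1.9e-07, 5.5e-05 and 3.9e-07), called in every alternative. The first of these fell by -2.18 from 72 h to 1 week (adjusted p = 6.7e-05). The peak 6.2 kb upstream, in Plin3, a lipid droplet protein, held 210, 226 and 284 normalised reads in NSPs and 138, 145 and 72.7 at 24 h, a log2 change of -1.07 ± 0.25 (limma, adjusted p = 0.00078). With TNF at 72 h it held 76.9, 56.2 and 87.6 against 92.6, 144 and 125, a change of -0.70 (adjusted p = 0.063) that passed with edgeR (adjusted p = 0.048) and DESeq2 (adjusted p = 0.044). This change passed in 5 of 17 alternatives, with adjusted p up to 0.27. A peak at the start of Uhrf1, which encodes a factor that maintains DNA methylation in dividing cells, changed by -0.72 ± 0.11 from NSPs to 24 h (adjusted p = 6.8e-06). The most open peak of the window lay 49.0 kb upstream and nearer to Kdm4b, which encodes a histone demethylase. It changed by -0.46 from 24 h to 72 h (limma, adjusted p = 0.0029), or -0.24 with loess. From 72 h to 1 week it rose by 0.81 (adjusted p = 1.3e-06), but by 0.02 with loess (adjusted p = 0.87).

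**Figure D3:**
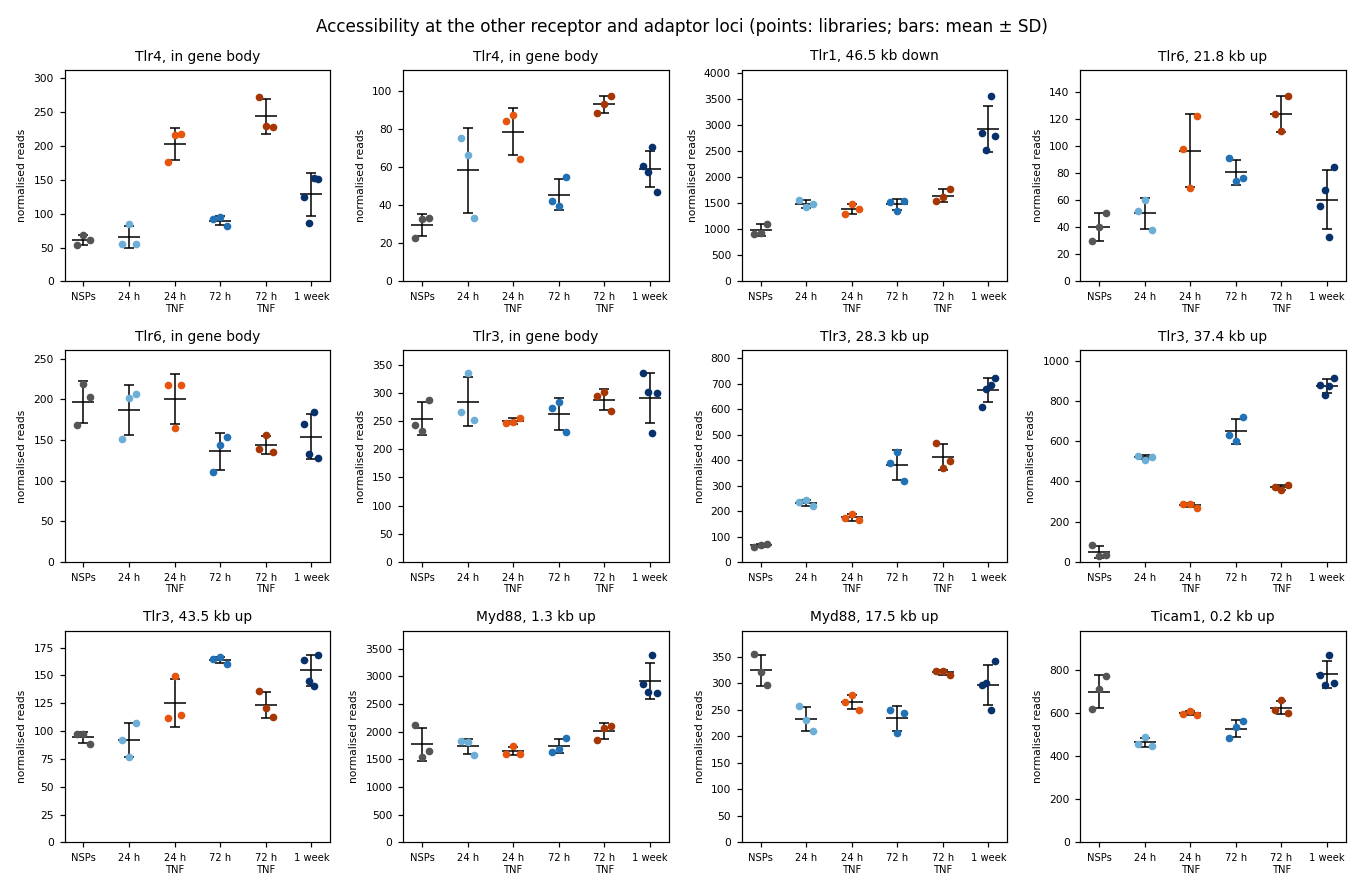
Normalised reads (vertical axis) in the 6 groups (horizontal axis) for 12 peaks around Tlr4, Tlr1, Tlr6, Tlr3, Myd88 and Ticam1. Points are libraries and bars are the mean ± SD. The Tlr4 peaks stand higher with TNF, the peak 37.4 kb upstream of Tlr3 stands lower with TNF at both times, and the start peak of Tlr3 stays level.

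Over differentiation without TNF, the shares of member peaks called in the first step, 19.1% each way, were near those of all peaks. From NSPs to 24 h, 9 of 47 peaks rose and 9 fell, where 24.2% and 23.0% of all peaks did. With total-read scaling, which moved the median of all peaks from -0.07 to 0.11, the counts were 12 and 5. From 24 h to 72 h, 7 rose and 2 fell, where 12.0% and 14.3% of all peaks did. The 9 that rose in the first step lay around Tlr2 (4 peaks), Tlr3 (2), Tlr1, Tlr4 and Tlr6 (1 each), and the 9 that fell around Ticam1 (5), Myd88 (2), Tlr3 and Tlr6 (1 each). In the step from 72 h to 1 week, 3 of the 6 Myd88 peaks rose and none fell. Around Ticam1, 4 of the 14 peaks rose and 1 fell. Over all peaks the shares were 22.5% and 16.2%. None of these Myd88 and Ticam1 rises was called with loess.

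Between 72 h and 1 week, 12 of 47 peaks rose and 2 fell, where 22.5% and 16.2% of all peaks did. The counts depended on scaling. They were 6 and 9 with total-read scaling, which moved the median of all peaks from 0.02 to -0.31, 9 and 5 with TMM, and 4 and 2 with loess. Between NSPs and 1 week, 20 rose and 8 fell, where 33.7% and 33.6% did, with a median log2 change of 0.29 over the members and 0.01 over all peaks. A difference of the TNF effect between 24 h and 72 h was called at none of the 47 peaks (limma, adjusted p). Of all peaks 0.00112% were called, and 6675 of 88919 had an unadjusted p under 0.05. None of the 47 was called by edgeR or DESeq2 either. With so few calls over all peaks, this cannot show that the effects were equal. The comparison also uses the 24 h TNF values that are given as a description.

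**Figure D4:**
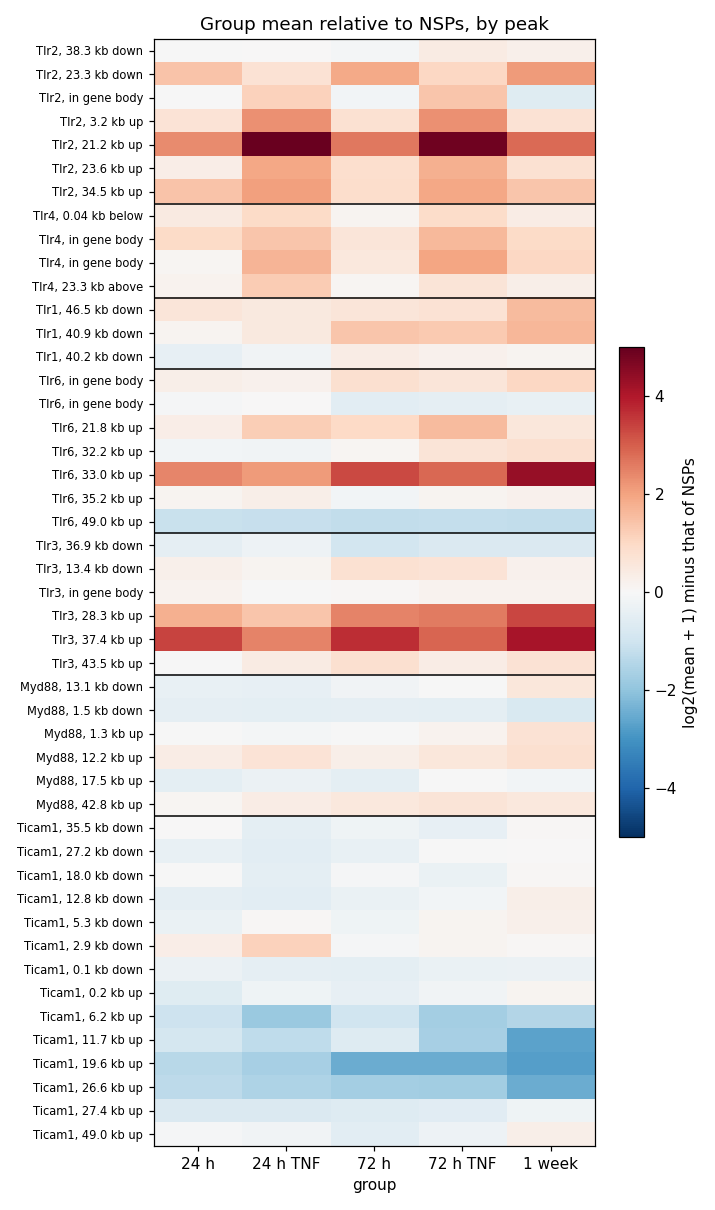
Each row is 1 of the 47 peaks and each column a group, with colour giving the log2 of the group mean + 1 minus that of NSPs (red higher, blue lower). Lines part the genes. The darkest red cells belong to the peaks 21.2 kb upstream of Tlr2, 37.4 kb upstream of Tlr3 and 33.0 kb upstream of Tlr6, and the blue rows gather in the Ticam1 window.

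The other genes of the pathway were read at their start peaks, and 29 of the 39 listed genes had a peak within 1 kb of the start. No such peak was found for the receptors Tlr5, Tlr7, Tlr8, Tlr9, Tlr11, Tlr12 and Tlr13, for the co-receptor Cd14, for Unc93b1, which carries receptors to endosomes, or for the inhibitory receptor Sigirr. With TNF at 72 h, 3 of the 29 rose and none fell (limma), where 2.98% and 0.866% of 10854 start peaks did, with medians of 0.14 and 0.13. The peak of Lbp, which encodes the protein that hands lipopolysaccharide to CD14, held 107, 98.1 and 95.6 normalised reads at 72 h without TNF and 285, 266 and 281 with TNF, a log2 change of 1.46 ± 0.20 (adjusted p = 1.0e-05). Irf5, an interferon regulatory factor downstream of MYD88, rose by 0.91 ± 0.22 (adjusted p = 0.0066). The third was Traf3, a ubiquitin ligase in the TICAM1 branch, with 0.81 ± 0.15 (adjusted p = 0.00034). At 24 h the changes were 1.08 at Lbp, 0.75 at Irf5 and 0.43 at Traf3.

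Because these receptors are best known from microglia, start peaks of 13 microglial and macrophage genes were read. Peaks were found for 3 of them, P2ry12, Tmem119 and Spi1, and none for the other 10, which include Csf1r, Cx3cr1, Itgam, Ptprc and Aif1. The summed level of the 3 was 327 to 386 normalised reads at 72 h without TNF and 341 to 415 with TNF, and at 24 h it was 335 to 349.6 without and 307 to 345 with. None of the 3 passed the threshold for TNF at either time. Of the astrocyte list, 6 of 10 genes had a start peak, and with TNF at 72 h Gfap, an intermediate filament of astrocytes, changed by -1.10 (limma, adjusted p = 0.0011) and Aldoc by -0.62 (adjusted p = 0.0019). Of the progenitor list, 6 of 7 genes had a start peak, and all 6 fell from NSPs to 24 h. In that step 42.8% of 10854 start peaks fell, with a median log2 change of -0.29, against -0.98 for the 6. Of the 6 astrocyte peaks, 3 fell and 1 rose in the same step. From 72 h to 1 week 4 of the 6 progenitor peaks rose and 1 fell, where 59.6% and 4.52% of start peaks did. Gfap and Aldoc were the only astrocyte calls with TNF at 72 h. Among the 6 progenitor peaks, Vim alone was higher with TNF at 72 h (0.33, limma, adjusted p = 0.046). Of the neuron list 3 of 5 genes had a start peak, of the oligodendrocyte list 1 of 4 and of the endothelial list 0 of 4, with no TNF call in those lists at either time. The part of cell composition in the TNF gains at Tlr2 and Tlr4 was not tested.

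The distal Tlr2 peak had close counterparts elsewhere. Among 53982 peaks outside the windows whose group means spanned at least 1 on the log2 scale, the 5 most like it over the 19 libraries lay near Pak3 (Pearson r = 0.977), in Nfasc (0.977), in Synpo2 (0.971), near Purg (0.970) and near Rbx1 (0.969). Among the members the most alike were the peaks 23.6 kb (0.925) and 3.2 kb (0.892) upstream of Tlr2 and the strongest peak of Tlr4 (0.860). These correlations share the libraries and were sought out as the highest, and so describe a common profile only.

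The limit of 50 kb was arbitrary. Just inside it lay the peaks at 49.0 kb from Tlr6 and from Ticam1 described above. Just outside lay a peak 50.4 kb downstream of Tlr3, with 43.2, 38.2 and 36.5 normalised reads in NSPs and 82, 78.7, 83.6 and 68.6 at 1 week. The other, 50.5 kb downstream of Ticam1 and nearer to Dpp9, held 973, 958 and 1189 in NSPs and 1302, 1205, 1501 and 1171 at 1 week. Of the 47 peaks, 27 had another gene than a member as the nearest, and nothing in the table ties a peak to the gene it acts on.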

How the data were processed

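ATAC-seq was read in all 19 libraries, grouped by their titles, and every library column was used. The authors deposited 1 matrix of signal values, normalised reads of each library over 90154 peaks on mm10 (GRCm38). The labels name FastQC, Trim Galore, Bowtie2, SAMtools and MACS2, and the methods of the study add removal of blacklisted regions, HOMER and DiffBind. Versions, duplicate removal and the shift of reads for the transposase are not given in the sources used here, and peaks were taken as listed. In each library 100% of values were whole multiples (tolerance 0.01) of the lowest value, so reads were recovered from them.

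Because values were normalised, log2(value + 1) was modelled by group in 1 limma-trend fit over the 19 libraries, whose spread the groups shared (limma 3.58.1 under R 4.3.3). This scale understates changes of low peaks. Peaks were kept by edgeR's filterByExpr with a minimum count of 10, which left 88919 and dropped 1235. P-values were two-sided, adjusted by Benjamini-Hochberg over the 88919, with calls made below 0.05. The 7 comparisons were TNF at 24 h, TNF at 72 h, each step over time, 1 week against NSPs, and the interaction of TNF with time. The fit was tested on simulated data. On the recovered reads, edgeR (4.0.16) called 6366 gains and 3597 losses under TNF at 24 h, and 5199 and 5419 at 72 h. DESeq2 (1.42.0) called 6847 and 3962 at 24 h, and 6165 and 5427 at 72 h.

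Peaks were named by rule. For each gene these were the peak closest to the start, the one with the highest mean and the one with the smallest p in each TNF or time step, plus all peaks of Tlr2 and those at the edge of the 50 kb window. Other peaks named in the text were chosen after their values were seen. The members and lists were chosen with earlier results of these data known. One listed marker gene is not reported here. Counts of all replicate pairs differed by more than sampling noise. The methods of the study speak of independent experiments in general and of cells from single brains, but the labels do not tie libraries to cultures or animals, so the spread behind p-values may be partly technical. Promoters and gene positions are from RefSeq (GRCm38.p6), where 6 of the 7 genes had a promoter entry.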

Additional observations from a re-analysis of the deposited data

Results flagged for a closer look

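The peak 43.5 kb upstream of Tlr3 had higher values with TNF at 24 h and lower values with TNF at 72 h. At 24 h it held 92.2, 76.7 and 107 normalised reads without TNF and 111, 150 and 114 with TNF, a log2 change of 0.44. At 72 h it held 165, 166 and 161 without TNF and 136, 121 and 113 with TNF, a log2 change of -0.41 (limma, adjusted p = 0.12). The difference between the effects, -0.85 ± 0.24, was not past the threshold (adjusted p = 0.39).

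In 2 of the 47 peaks, 1 of the 4 libraries at 1 week stood far from the rest, which chance gives in about 5% of such groups. At the peak 35.2 kb upstream of Tlr6, replicate 2 held 39.7 normalised reads against 52, 50.6 and 52.5, a gap of 0.849 of the whole range. At the peak 0.1 kb downstream of Ticam1, replicate 3 held 326 against 282, 278 and 280, a gap of 0.917 of the range.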

How the results depend on the processing

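The counts of member peaks higher with TNF lay between 6 and 10 for 24 h, and between 6 and 11 for 72 h, over the alternatives run. Where a count moved by more than 1.5 times, the values were as follows. With a 25 kb window, which holds fewer peaks, TNF lowered 1 peak at 24 h and 0 at 72 h, 4 rose and 5 fell from NSPs to 24 h, 3 rose and 0 fell from 24 h to 72 h, 6 rose from 72 h to 1 week, and 11 rose and 5 fell from NSPs to 1 week. With total-read scaling, 2 were lower with TNF at 72 h, 5 fell from NSPs to 24 h, and 6 rose and 9 fell from 72 h to 1 week. From 72 h to 1 week 4 rose with loess, 5 fell with TMM, and 4 fell with edgeR and with DESeq2. With only the compared groups, 4 were lower with TNF at 72 h and 4 fell from 24 h to 72 h. With edgeR 2 and with DESeq2 3 were lower with TNF at 72 h. Leaving out 1 library at a time gave 1 to 3 lower with TNF at 24 h, 1 to 2 lower with TNF at 72 h, 3 to 7 higher and 1 to 3 lower from 24 h to 72 h, and 2 to 4 lower from 72 h to 1 week. The fewest rises from 24 h to 72 h, 3, came without 72 h replicate 3, and 4 came without 24 h replicate 1 and without 72 h replicate 1. TNF lowered 1 peak at 24 h in place of 3 without any library of the compared groups but 24 h replicate 3, and 2 at 72 h in place of 1 without 72 h replicate 1. The fall from 24 h to 72 h was 1 peak in place of 2 without 24 h replicate 3, and from 72 h to 1 week 4 in place of 2 without 72 h replicate 2. The cause of these shifts was not tested beyond the smaller window. The TNF change at 72 h of the peak 46.5 kb downstream of Tlr1 reversed from 0.15 to -0.00029 with loess, and that at 24 h of the peak 38.3 kb downstream of Tlr2, 0.03, ranged from -0.094 to 0.15 when a library was left out (-0.019 without 24 h replicate 1, -0.094 without 24 h TNF replicate 3). Over the named peaks and alternatives other than leaving out a library, 481 values kept direction and call, 19 lost the call, 16 gained it and 1 reversed. When a library was left out, 249 kept both, 34 lost the call, 4 gained it and 2 reversed.

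Deviations of equally numbered libraries correlated weakly, between -0.042 and 0.11. Unequally numbered libraries were not compared, so these values cannot show whether the replicate numbers pair the libraries. With a replicate block by the numbers in the titles, TNF raised 9 member peaks and lowered 1 at 72 h, and by those in the descriptions, where 72 h TNF libraries are numbered differently, 8 and 1. Depth was lowest in 1 of the 1 week libraries, at 9640256 reads in peaks, and limits the weakest peaks, such as that 19.6 kb upstream of Ticam1.

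Over all peaks, 20035 rose and 14383 fell from 72 h to 1 week, against 7965 and 30033 with total-read scaling and 11660 rises with loess, and 20490 fell from NSPs to 24 h, against 12367 with total-read scaling. With only the compared groups, TNF lowered 5750 peaks at 24 h in place of 3136, and raised 8739 and lowered 7686 at 72 h in place of 5551 and 4932. Leaving out 1 library took these TNF counts down to 1525 lower and 3860 higher at 24 h and to 2829 lower and 3602 higher at 72 h. The interaction was called at 1 peak, and at 26 higher and 162 lower with only the compared groups, 18 and 67 with DESeq2, and 8 or fewer lower under the other alternatives.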
